A study of Mus musculus with 14 samples.

Results

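The nuclear-encoded subunits of the oxidative phosphorylation machinery were followed through 7 groups of sorted mouse CD4+ T cells. They were taken from the count table by gene symbol: the Nduf subunits of complex I (Nduf followed by a, b, c, s or v and a digit), Sdha to Sdhd of complex II, the Uqcr genes of complex III, the Cox4 to Cox8 genes with a letter from a to c of complex IV and the Atp5 genes of complex V, leaving out symbols that end in -ps and a number. Of the 25017 gene entries 84 symbols matched, and 69 of these reached 5 CPM (gene counts set against the library total) in at least 2 libraries and form the set described here. They comprise 34 members of complex I, 4 of complex II, 8 of complex III, 10 of complex IV and 13 of complex V, and all 69 were among the 13780 genes tested. Ndufa4 is counted with complex IV, to which its protein is assigned, although its name places it in complex I. In all that follows a gene is said to have risen, fallen or changed by edgeR's quasi-likelihood test. The limit was an adjusted p under 0.05, with Benjamini-Hochberg adjustment over all genes tested. Whether the libraries of 2 groups overlap is described for named genes only. It rests on the same libraries as the test and adds no separate evidence, and its share over all tested genes is not given.

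The donor cells (strain C57BL/6, B6) had been given to BALB/C mice by hematopoietic cell transplantation (HCT), a mouse model of graft-versus-host disease in which donor T cells attack the host. All recipients received T-cell-depleted (TCD) bone marrow; those that also received donor splenocytes formed the chronic graft-versus-host disease (cGVHD) groups, and those without splenocytes the GVHD-free group. CD4+ T cells of donor origin were sorted on day 30 after HCT as low or high for PSGL1, the P-selectin ligand that Selplg encodes, and their messenger RNA was sequenced. Each of the 7 groups holds 2 libraries. A single group is GVHD-free spleen PSGL1lo; the other 6 are the PSGL1lo and the PSGL1hi fraction of each of 3 cGVHD tissues, which are spleen, liver and lung. The sex and age of the animals and the number of animals pooled per library are not given in the labels, and GVHD-free PSGL1hi cells were not analysed here.

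Oxidative phosphorylation takes place in the inner mitochondrial membrane. Complexes I and II pass electrons from NADH and succinate to ubiquinone, complex III passes them on to cytochrome c, complex IV reduces oxygen, and the proton gradient built along the way drives ATP synthesis by complex V. Most subunits are encoded in the nucleus and imported, while a small group of core subunits of complexes I, III, IV and V is encoded in mitochondrial DNA. T cells that are activated to grow and divide are known to expand their mitochondria and to raise the expression of these genes, and resting T cells rely on the same machinery for most of their ATP. No symbol starting with mt- was found in the count table, and the mitochondrially encoded subunits were not analysed here.

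The promoters of 3 members that fell in PSGL1lo cells of more than 1 tissue (Cox5a, Uqcrfs1, Cox6a1) and of 1 each of complexes III and II that fell in spleen (Uqcr11, Sdhd) are shown because genes of this family are known to share sites for nuclear respiratory factor 1 (NRF1), for ETS proteins such as GABP and for YY1. They are RefSeq sequences of assembly GRCm38.p6, read 5′ to 3′ on the strand of the gene, from the bases before the start that no annotated exon covers. Capitals mark the NRF1 core CGCANGCG, the ETS core CCGGAAG and the YY1 core AANATGGCG, each searched on both strands, so that a site on the other strand appears as its reverse complement.
Cox5a, chr9:57521112-57521231, plus strand: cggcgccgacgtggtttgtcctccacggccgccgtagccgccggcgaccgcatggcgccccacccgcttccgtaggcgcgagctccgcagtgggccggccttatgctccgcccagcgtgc
Uqcrfs1, chr13:30545363-30545482, minus strand: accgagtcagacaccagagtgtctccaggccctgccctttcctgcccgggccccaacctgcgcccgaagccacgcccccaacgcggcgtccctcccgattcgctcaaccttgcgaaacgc
Cox6a1, chr5:115348982-115349129, minus strand: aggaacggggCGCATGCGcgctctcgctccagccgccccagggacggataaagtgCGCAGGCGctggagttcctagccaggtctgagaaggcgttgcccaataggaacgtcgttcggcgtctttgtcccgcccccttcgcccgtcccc
Uqcr11, chr10:80406831-80406950, minus strand: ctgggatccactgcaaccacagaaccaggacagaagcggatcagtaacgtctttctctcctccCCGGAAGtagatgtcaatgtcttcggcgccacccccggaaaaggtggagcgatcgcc
Sdhd, chr9:50603850-50603909, minus strand: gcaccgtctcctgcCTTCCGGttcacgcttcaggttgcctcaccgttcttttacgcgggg
Cox5a and Uqcrfs1, which fell in all 3 tissues, hold none of the 3 letter strings in these stretches. Cox6a1 holds 2 NRF1 cores, Uqcr11 1 ETS core and Sdhd 1 ETS core on the other strand. The stretches differ in length. Outside them, the longer windows of the same promoters also held an ETS core in Cox6a1 and an NRF1 core each in Uqcr11 and Sdhd. Over windows from 250 bases before to 50 after the start, 58 of 69 members had 63 entries, of which 39.7% held the NRF1 core, 23.8% the ETS core and 15.9% the YY1 core, against 8.21%, 8.86% and 2.38% of all 32851 RefSeq promoters. Any of the 3 was found in 65.1% of the members' promoters and in 17% of all. Among the 33 promoters of members that fell in spleen PSGL1lo 24.2% held the NRF1 core, 33.3% the ETS core and 18.2% the YY1 core, and among the other 30 the shares were 56.7%, 13.3% and 13.3%. These shares are descriptions of the windows, and no binding was measured.

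The libraries held 13222005 to 33532595 counts, with 13283091 and 14905806 in spleen PSGL1lo against 21346229 and 23000993 in spleen PSGL1hi. Within each group the 2 libraries differed beyond sampling noise, with a chi-square of 2.97 to 19 for each degree of freedom. The labels do not state that they stem from separate animals, and the p-values therefore cover the spread between these samples alone, which may be technical. Selplg was lower in PSGL1lo than in PSGL1hi in each tissue (log2 change -0.96 in spleen, -0.68 in liver and -1.19 in lung), as the labels of the fractions state. Cd4 lay between 1520 and 2680 CPM in every library, and all 6 CD4 T cell markers found in the table were detected throughout. Markers of other cells were also present at levels that moved with the groups. The 2 CD8 markers summed to 77.7 and 78.0 CPM in spleen PSGL1hi against 12.0 and 12.6 CPM in spleen PSGL1lo, to 140 and 139 against 32.8 and 28.8 in liver, and to 25.8 and 27.5 against 12.1 and 12.4 in lung. The 11 myeloid markers summed to 369 and 399 CPM in spleen PSGL1hi against 189 and 178 in spleen PSGL1lo, to 25.3 to 51.6 CPM in liver and to 647 to 1220 CPM in lung, where Lyz2 gave most of the sum. The 4 natural killer cell markers summed to 143 and 138 CPM in spleen PSGL1hi against 72.5 and 73.5 in spleen PSGL1lo, most of it Eomes, which T cells also express. All 3 of them that were tested were lower in PSGL1lo in spleen, in liver and in lung. Klre1 averaged 0.674 CPM in PSGL1lo against 4.77 in PSGL1hi in spleen, 5.2 against 17.5 in liver and 2.23 against 6.16 in lung. Ncr1, the defining one, reached at most 0.839 CPM and was at 0 in both spleen PSGL1lo and both lung PSGL1lo libraries. The 6 B and plasma cell markers summed to 48.6 and 54.9 CPM in spleen PSGL1hi against 20.3 and 19.5 in spleen PSGL1lo. Most of the PSGL1hi sum was Jchain, which averaged 45 CPM against 4.3 in PSGL1lo. Cd22 went the other way, with 3.95 in PSGL1hi against 14.4 in PSGL1lo. Of the 5 tested, 1 was higher and 2 were lower in spleen PSGL1lo. The 7 hepatocyte markers summed to 66.1 and 58.7 CPM in liver PSGL1lo against 31.4 and 26.9 in liver PSGL1hi. They also summed to 67.8 and 75.6 CPM in spleen PSGL1hi against 34.3 and 35.4 in spleen PSGL1lo. Nearly all of the spleen sums was Trf, with means of 71.7 and 34.5 CPM. The 5 markers of lung epithelium summed to 5.22 and 87.4 CPM in lung PSGL1lo against 40.7 and 32.4 in lung PSGL1hi. Their part in the results below was not tested.

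Together the members made up 0.6155% to 0.7964% of the counts of a library. Their summed level, in CPM scaled by the trimmed mean of M values (TMM, which equalises libraries on the bulk of their genes), was 6142 and 6173 in the GVHD-free libraries, 6090 and 6178 in PSGL1lo cells of the cGVHD spleen and 7303 and 7917 in their PSGL1hi counterparts. Both spleen PSGL1hi libraries thus lay above all 4 spleen PSGL1lo libraries. The PSGL1hi pair also stood apart from each other, with 56 of 69 members higher in replicate 2 and a median difference of 0.13, against 0 over all genes. In liver the sums were 7110 and 6232 in PSGL1lo and 7022 and 6988 in PSGL1hi, so the PSGL1lo pair enclosed the PSGL1hi pair. In lung they were 6450 and 6738 in PSGL1lo and 7077 and 7398 in PSGL1hi and did not overlap, whereas as a percentage of all counts they did (0.6456% and 0.6731% against 0.6401% and 0.6645%). The TMM factors of the lung PSGL1hi libraries were 0.905 and 0.898 against 1.001 and 0.999 in lung PSGL1lo. In these bulk samples fewer cells carrying a transcript and less of it per cell cannot be told apart.

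**Figure D1:**
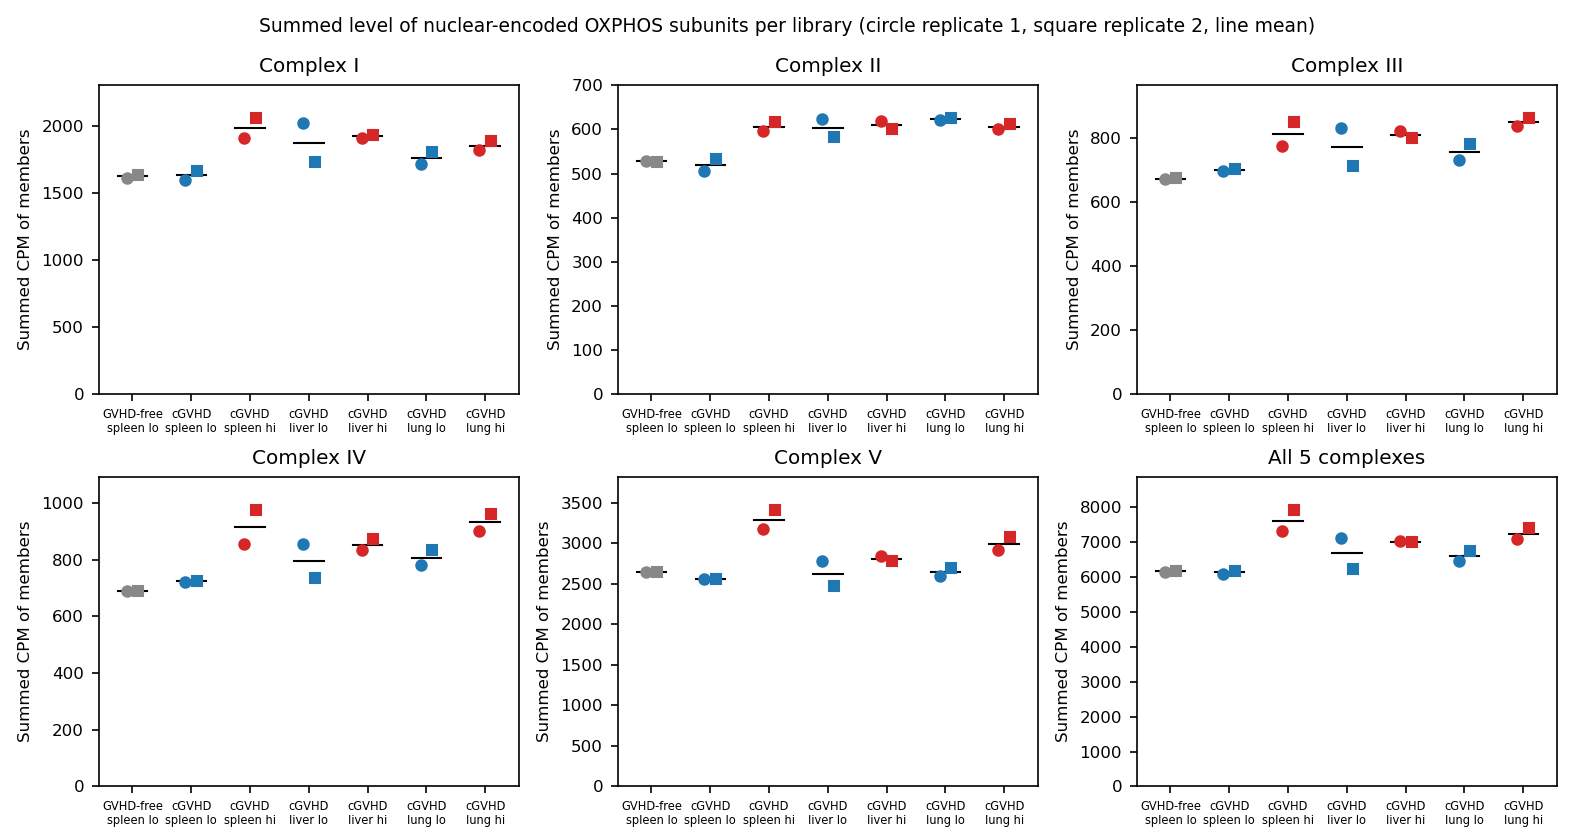
TMM-scaled CPM summed over the members of each complex (y axis) in the 7 groups (x axis), with 1 point per library (circle replicate 1, square replicate 2, grey GVHD-free, blue PSGL1lo, red PSGL1hi) and a line at the mean. Over all 5 complexes the 2 spleen PSGL1hi libraries, at 7303 and 7917, lie above the 4 spleen PSGL1lo libraries, at 6090 to 6178. In liver the pairs overlap for all complexes but V (2472 and 2778 against 2780 and 2837); in lung PSGL1hi is higher on this scale for complexes I, III, IV and V, but as a percentage of counts complex I is lower in PSGL1hi and III, IV and V overlap.

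In the spleen of cGVHD animals the subunits were lower in PSGL1lo than in PSGL1hi cells across all 5 complexes. Of the 69 members 41 (59.4%) fell and none rose, where 16.7% of all tested genes fell and 15.8% rose. The log2 change was negative for 67 of 69 members, with a median of -0.31 and quartiles of -0.39 and -0.22, while the median over all tested genes was 0 with quartiles of -0.27 and 0.30. The changes were small and alike: the steepest was -0.58, and 20 of 34 members of complex I, 3 of 4 of complex II, 3 of 8 of complex III, 7 of 10 of complex IV and 8 of 13 of complex V fell. The ratio of the summed level in PSGL1lo to that in PSGL1hi was 0.822 ± 0.050 for complex I, 0.857 ± 0.037 for complex II, 0.862 ± 0.056 for complex III, 0.791 ± 0.075 for complex IV and 0.778 ± 0.040 for complex V (SD carried over from 2 libraries a group), and between 0.789 and 0.875 for all 5 as a percentage of counts. The count of 41 dropped to 17, all lower, without PSGL1lo replicate 1 and likewise without PSGL1hi replicate 2, with a median of -0.28 and -0.23. With an offset for coding length, whose median was 429 bases over the members and 1386 over the tested genes with a length, 20 members were lower and 1, Uqcrq, was higher, and the median moved to -0.17 with 59 of 69 members negative.

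**Figure D2:**
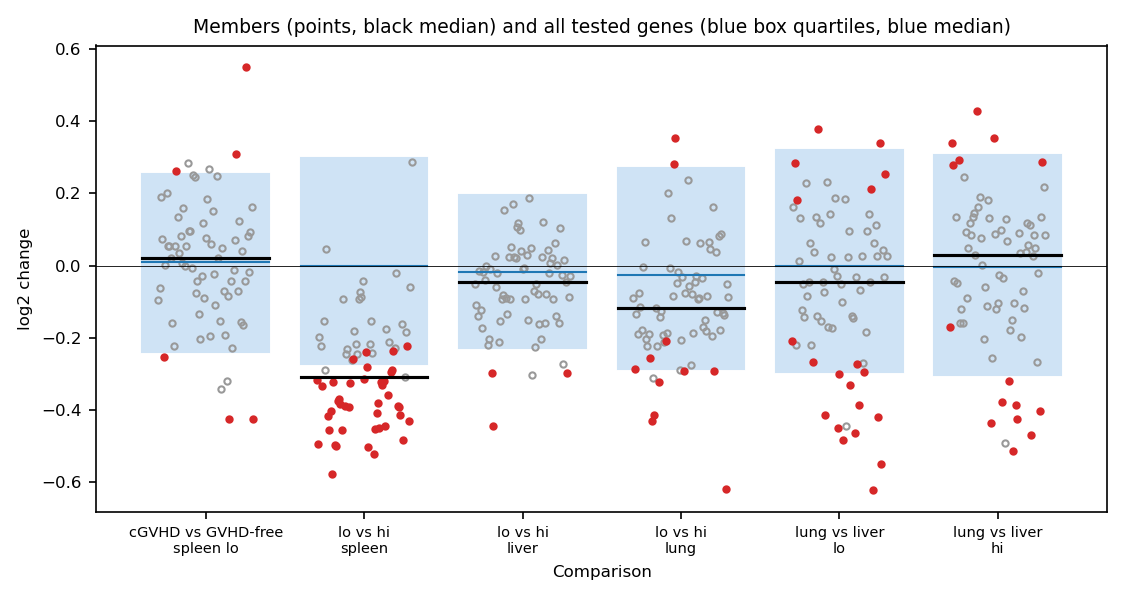
log2 change (y axis) of the 69 members (points, spread sideways only for legibility; red where the adjusted p was under 0.05, open grey otherwise) in 6 comparisons (x axis), with the median of the members (black line) and the quartiles and median of all 13780 tested genes (blue box and line). In the spleen comparison of PSGL1lo with PSGL1hi the median of the members, -0.31, lies below the lower quartile of all genes, -0.27; in the other 5 comparisons it lies inside the box.

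Complex I takes electrons from NADH. Its 7 nuclear-encoded core subunits carry the flavin and the iron-sulfur clusters, and 6 of them fell in spleen PSGL1lo, among them Ndufs1, Ndufs3 and Ndufv1. Ndufs1, the largest core subunit, read 101 and 108 CPM in spleen PSGL1lo against 123 and 141 in PSGL1hi (-0.33 ± 0.08 SE, adjusted p = 0.0028). The 2 groups did not overlap. Ndufv1, which binds NADH, read 67.6 and 72.2 against 85.8 and 85.1 (-0.29 ± 0.09, adjusted p = 0.0211), again without overlap. Among the 27 supernumerary subunits, which surround the core and serve its assembly and stability, 14 fell and none rose. The steepest were Ndufb6, at 21.8 and 27.1 CPM against 31.8 and 38.6 (-0.52 ± 0.12, adjusted p = 0.00201), and Ndufb2, at 15.5 and 19.2 against 22.2 and 26.9 (-0.50 ± 0.14, adjusted p = 0.00808). Both belong to the membrane arm, where Ndufb7 (-0.45), Ndufc1 (-0.45), Ndufb8 (-0.41), Ndufb9 (-0.38), Ndufc2 (-0.32), Ndufb11 (-0.28) and Ndufb10 (-0.24) fell as well. Ndufa8, at 26.2 and 30.7 CPM against 31.7 and 27.1, had the smallest change of complex I (-0.04), and its groups overlapped.

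Complex II is succinate dehydrogenase and links the tricarboxylic acid cycle to the chain; all of its 4 subunits are nuclear. Sdhb, the iron-sulfur subunit, read 110 and 109 CPM in spleen PSGL1lo against 138 and 149 in PSGL1hi (-0.39 ± 0.10, adjusted p = 0.0033). The membrane anchors followed, Sdhc with 60.8 and 59.5 against 72.0 and 85.7 (-0.39 ± 0.09, adjusted p = 0.00127) and Sdhd with 88.7 and 94.0 against 115 and 128 (-0.41 ± 0.08, adjusted p = 0.000446). None of the 3 overlapped between the fractions. Sdha, the flavoprotein that holds the catalytic site, read 247 and 270 CPM against 270 and 255, so the fractions overlapped and the change was -0.02 ± 0.07 (adjusted p = 0.846). The 3 anchoring and electron-passing subunits thus fell by about the same amount while the change of the catalytic subunit was near 0; the difference between Sdha and the others was not tested.

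Complex III passes electrons from ubiquinol to cytochrome c. Uqcrfs1, the Rieske iron-sulfur protein and the only nuclear subunit of the set with a redox centre in this complex, read 105 and 108 CPM in spleen PSGL1lo against 137 and 150 in PSGL1hi (-0.43 ± 0.09, adjusted p = 0.000547). The small subunit Uqcr11 read 21.0 and 23.1 against 28.8 and 32.9 (-0.48 ± 0.13, adjusted p = 0.00542), and the core protein Uqcrc2 fell by 0.22 on the log2 scale (adjusted p = 0.021). Those 3 did not overlap between fractions. Uqcrc1, the partner of Uqcrc2, read 162 and 137 against 170 and 169, with a change of -0.18 that did not pass the test. Uqcrq was the only member of the 69 apart from Atp5j with a positive change, at 8.94 and 9.35 CPM in PSGL1lo against 8.10 and 6.92 in PSGL1hi (0.29, adjusted p = 0.111).

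Complex IV, cytochrome c oxidase, hands electrons to oxygen. Cox5a, a matrix-side subunit, read 65.0 and 66.5 CPM in spleen PSGL1lo against 93.6 and 91.8 in PSGL1hi (-0.50 ± 0.08, adjusted p = 5.86e-05). Cox5b, the zinc-binding subunit beside it, read 35.5 and 27.8 against 40.2 and 48.8 (-0.50 ± 0.15, adjusted p = 0.0134). Neither gene overlapped between the fractions, but the 2 PSGL1lo libraries of Cox5b lay further apart than those of Cox5a. Cox7a2 (-0.46), Cox7b (-0.39), Cox6c (-0.38), Cox6a1 (-0.38) and Cox6b1 (-0.37) fell too. The 3 that did not pass were Cox8a (-0.24), Ndufa4 (-0.24) and Cox7a2l (-0.09), the last a paralog of Cox7a2.

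Complex V, the ATP synthase, consists of a catalytic F1 head and a membrane Fo part joined by stalks. Atp5b, the catalytic beta subunit, read 827 and 813 CPM in spleen PSGL1lo against 1123 and 1186 in PSGL1hi (-0.49 ± 0.07, adjusted p = 5.94e-06). Atp5a1, the alpha subunit, read 856 and 823 against 1014 and 1078 (-0.32 ± 0.06, adjusted p = 0.000646). Atp5o, which ties the head to the peripheral stalk, had the steepest change of all 69 members, with 54.1 and 49.3 CPM against 74.4 and 79.7 (-0.58 ± 0.11, adjusted p = 0.000285). The fractions did not overlap for any of these 3. Atp5k (-0.45), Atp5j2 (-0.42), Atp5mpl (-0.40), Atp5e (-0.33) and Atp5pb (-0.32) also fell. Atp5h (-0.29), Atp5d (-0.22), Atp5c1 (-0.20) and Atp5g3 (-0.15) did not pass the test, nor did Atp5j, a stalk subunit, with 37.8 and 39.8 CPM against 36.2 and 39.0 (0.05).

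Of these 41 members 13 were called in every alternative fit, among them all 3 of complex II (Sdhb, Sdhc, Sdhd), Uqcrfs1, Cox5a and Cox7a2, Atp5a1, Atp5b and Atp5o, and Ndufa10, Ndufb7, Ndufb8 and Ndufb9. The 21 calls lost with the coding-length offset included Cox5b, Cox6a1, Uqcr11, Ndufs3 and Ndufc1.

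**Figure D3:**
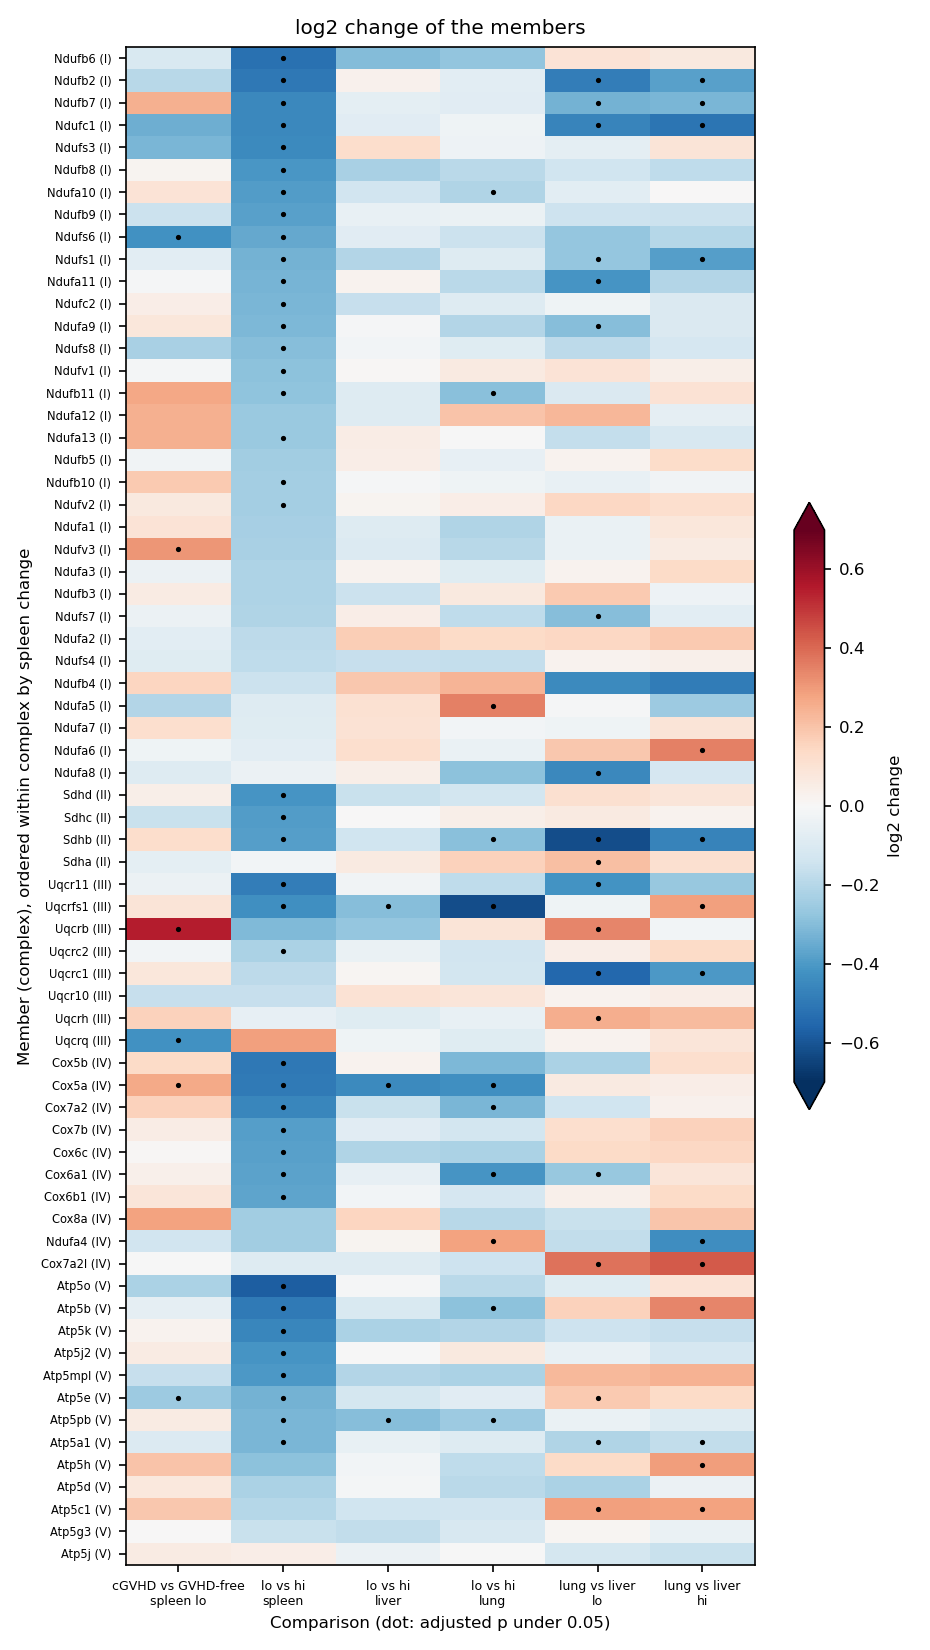
log2 change (colour, blue lower and red higher in the first-named group, clipped at the ends of the scale) of the members (rows, grouped by complex and ordered by the spleen change; 1 is left out) in 6 comparisons (columns), with a dot where the adjusted p was under 0.05. In the column of the spleen fractions all dots lie on blue cells, and the liver column holds 3 dots and the lung column 11; Cox5a, Uqcrfs1 and Atp5pb carry a dot in all 3.

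In the liver of cGVHD animals 3 members (4.35%) fell in PSGL1lo and none rose, where 12.3% of all tested genes fell and 8.5% rose. The median change was -0.05 (all tested genes: -0.02), with 46 of 69 members negative. Cox5a read 84.8 and 75.5 CPM in PSGL1lo against 109 and 109 in PSGL1hi (-0.45 ± 0.08, adjusted p = 0.000208). Uqcrfs1 read 113 and 93.1 against 129 and 125 (-0.30 ± 0.08, adjusted p = 0.0146). Atp5pb, the b subunit of the peripheral stalk, read 117 and 111 against 141 and 139 (-0.30 ± 0.08, adjusted p = 0.0124). None of the 3 overlapped between fractions, and Cox5a was called in every alternative fit. The 2 liver PSGL1lo libraries stood apart from each other: replicate 2 was lower than replicate 1 in 65 of 69 members, with a median difference of -0.22 against 0.01 over all genes. Without replicate 1 the fractions differed in 7 members, all lower in PSGL1lo, with a median of -0.15 and 67 of 69 members negative. Without replicate 2 they differed in 6, of which 3 were lower and 3 higher, and the median turned to 0.04 with 44 of 69 members positive; without either PSGL1hi library they differed in 1. With the coding-length offset the median was -0.01, with 35 members negative and 34 positive. The direction of the liver median thus rests on which PSGL1lo library is used.

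In lung 9 members (13%) fell in PSGL1lo and 2 (2.9%) rose, where 20.1% of all tested genes fell and 12.9% rose. The median change was -0.12 (all tested genes: -0.03) and 55 of 69 members were negative. The falls were largest in Uqcrfs1, with 97.0 and 105 CPM in PSGL1lo against 153 and 157 in PSGL1hi (-0.62 ± 0.08, adjusted p = 6.17e-06), Cox5a, with 82.0 and 85.7 against 108 and 118 (-0.43 ± 0.08, adjusted p = 0.000159), and Cox6a1, with 82.1 and 97.8 against 120 and 119 (-0.41 ± 0.10, adjusted p = 0.00313). Each of these was lower in both PSGL1lo libraries than in both PSGL1hi libraries. Cox7a2 (-0.32), Ndufb11 (-0.29), Sdhb (-0.29), Atp5b (-0.29), Atp5pb (-0.26) and Ndufa10 (-0.21) also fell, the last with its lung call kept in 1 of 10 alternative fits. Against this direction Ndufa5, a supernumerary subunit of the matrix arm of complex I, read 26.5 and 30.5 CPM in PSGL1lo against 23.0 and 21.7 in PSGL1hi (0.35 ± 0.13, adjusted p = 0.0374). Ndufa4, the complex IV subunit, read 55.5 and 52.6 against 41.3 and 47.6 (0.28 ± 0.10, adjusted p = 0.0283). Neither gene overlapped between the fractions. As a percentage of all counts, however, the lung ratios of PSGL1lo to PSGL1hi moved from 0.950 to 1.05 for complex I, from 1.03 to 1.14 for complex II, from 0.891 to 0.988 for complex III, from 0.866 to 0.960 for complex IV and from 0.884 to 0.980 for complex V. Leaving out a lung library gave 5 called members without PSGL1lo replicate 1 or PSGL1hi replicate 2, 6 without PSGL1lo replicate 2 and 9, all lower, without PSGL1hi replicate 1.

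In the 3 tissues side by side, each with its own PSGL1hi libraries, 3 members fell in all of them: Cox5a (-0.50 in spleen, -0.45 in liver, -0.43 in lung), Uqcrfs1 (-0.43, -0.30, -0.62) and Atp5pb (-0.32, -0.30, -0.26). They are 4.3% of the members, where 861 of the 13780 tested genes (6.25%) fell in all 3. A further 6 members (8.7%), Atp5b, Cox6a1, Cox7a2, Ndufa10, Ndufb11 and Sdhb, fell in spleen and lung but not in liver. Of all tested genes 6.68% fell in 2 tissues. Another 32 members (46.4%) fell in 1 tissue and 28 (40.6%) in none, against 17.1% and 70% of all tested genes. The direction was negative in all 3 tissues for 40 members (58%), and the share over all tested genes is not given here. Part of the exons of Atp5pb lies opposite Wdr77 (21% of its exon bases) and part of those of Cox5a opposite the unnamed gene Gm26631 (41.7%), and whether the counting used strand is not stated. Wdr77 changed by 0.11, -0.10 and 0.16 in spleen, liver and lung, none of which passed the test. In all, 20 of 69 members share exon bases with another gene, 11 of them at least 10%, among them Atp5o with Donson on the same strand (25.5%) and Ndufb6 with Smim27 on the other (39%).

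**Figure D4:**
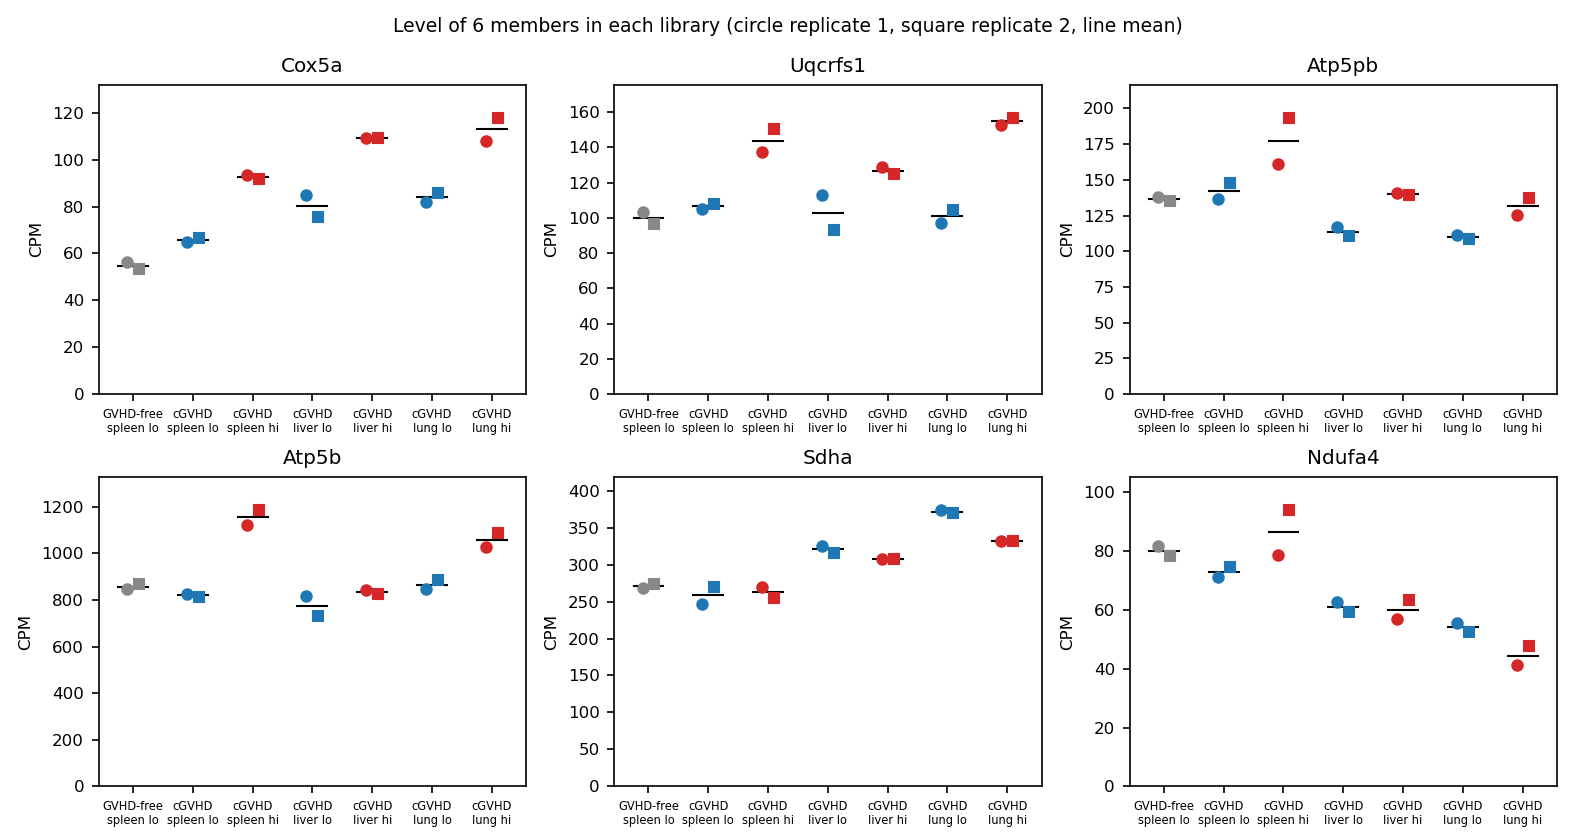
TMM-scaled CPM (y axis, from 0) of 6 members in the 7 groups (x axis), with 1 point per library (circle replicate 1, square replicate 2, grey GVHD-free, blue PSGL1lo, red PSGL1hi) and a line at the mean. Cox5a, Uqcrfs1 and Atp5pb lie lower in PSGL1lo than in PSGL1hi in each tissue; Atp5b does so too, with a change called in spleen and lung but not in liver; Sdha shows overlapping fractions in spleen; Ndufa4 is higher in PSGL1lo in lung.

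The difference between tissues of the PSGL1lo effect was tested directly. Between liver and spleen 3 members passed, all with a less negative change in liver (4.35% of members; 2.64% of all tested genes were higher and 4.2% lower): Atp5o (difference 0.57 ± 0.15, adjusted p = 0.0259), Sdhc (0.39 ± 0.12, adjusted p = 0.0489) and Atp5b (0.39 ± 0.09, adjusted p = 0.0159). Sdhc read 91.1 and 83.1 CPM in liver PSGL1lo against 87.4 and 86.6 in liver PSGL1hi, overlapping, where its spleen fractions did not overlap. Between lung and spleen 3 members passed, all in the same direction (4.35% of members; 5.51% of all tested genes were higher and 11.1% lower), among them Ndufa4 (0.53 ± 0.14, adjusted p = 0.00964) and Sdhc (0.43 ± 0.12, adjusted p = 0.0156). Between lung and liver no member passed (2.08% of all tested genes were higher and 3.89% lower), with 4 members at an unadjusted p under 0.05 and none called by DESeq2. The differences of liver and of lung against spleen share the spleen libraries and are not separate evidence. Shares of positive differences over all tested genes are not given here. Over all 69 members the difference was positive for 64 between liver and spleen (median 0.25) and for 62 between lung and spleen (median 0.21); the median over all tested genes was -0.01 and -0.02. With the coding-length offset these medians were 0.15 (56 positive) and 0.10 (51 positive), without liver PSGL1lo replicate 1 that between liver and spleen was 0.13 (55 positive), and without spleen PSGL1hi replicate 1 that between lung and spleen was 0.32 (65 positive). The number of called members was unstable: between liver and spleen it was 26 without liver PSGL1lo replicate 2, 6 when replicate 1 of spleen PSGL1hi was left out, and 0 or 1 without any other single library of the contrast. Between lung and spleen leaving out replicate 1 of spleen PSGL1hi gave 17, and leaving out replicate 2 of spleen PSGL1hi, either spleen PSGL1lo library or replicate 1 of lung PSGL1hi gave 1 each; between lung and liver it was 6 without liver PSGL1lo replicate 2. The spleen libraries carry another series of library numbers in the labels than those of liver and lung. Each fraction contrast lies within 1 series, but in the differences against spleen the tissue cannot be told apart from the series.

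Some subunits differed with disease, which cannot be told apart here from the donor splenocytes that only the cGVHD groups received. Between cGVHD and GVHD-free spleen PSGL1lo cells 3 members rose and 3 fell (4.35% each), where 14.7% of all tested genes rose and 12.8% fell, and the median change was 0.02 (all tested genes: 0.01). Uqcrb, a small complex III subunit that binds beside ubiquinone, read 26.7 and 26.9 CPM in cGVHD against 18 and 18.6 in GVHD-free cells (0.55 ± 0.13, adjusted p = 0.00199). It was the only 1 of the 6 called in every alternative fit. Ndufv3, a small subunit of the NADH-binding module, read 61.2 and 63.4 against 49.8 and 50.8 (0.31 ± 0.09, adjusted p = 0.0174), and Cox5a 65.0 and 66.5 against 56.2 and 53.3 (0.26 ± 0.08, adjusted p = 0.0219). Cox5a was thus higher in cGVHD PSGL1lo than in GVHD-free PSGL1lo cells and lower in cGVHD PSGL1lo than in cGVHD PSGL1hi cells, in a pair of comparisons that share the cGVHD PSGL1lo libraries. The 3 falls were in subunits of complexes I, III and V. Ndufs6, a zinc-binding accessory subunit of complex I, read 11 and 13.9 against 17.0 and 16.5 (-0.42 ± 0.14, adjusted p = 0.0256). Uqcrq read 8.94 and 9.35 against 13.1 and 11.4 (-0.42 ± 0.13, adjusted p = 0.0207), and Atp5e, the epsilon subunit of the F1 head, 103 and 110 against 126 and 128 (-0.25 ± 0.07, adjusted p = 0.0133). The groups did not overlap for any of the 6, which the test had picked from the same libraries. With only the groups compared in the fit 14 members were called, 8 higher and 6 lower. Leaving out 1 of the 4 libraries left 1 to 3 called members: 1 without GVHD-free replicate 1, 2 without GVHD-free replicate 2 or cGVHD replicate 1, and 3 without cGVHD replicate 2. Markers of other cells also differed: the 6 B and plasma cell markers summed to 69.5 and 71.1 CPM in GVHD-free against 20.3 and 19.5 in cGVHD cells, with all 5 tested lower, and the 11 myeloid markers to 139 and 131 against 189 and 178, with 4 higher and 2 lower. Of 26 proliferation genes 8 rose and none fell. Their part in the result was not tested. The 4 subunits of complex II and both F1 catalytic subunits did not pass, with changes from -0.16 to 0.12 for complex II, -0.06 for Atp5b and -0.09 for Atp5a1.

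Lung and liver cells of cGVHD animals differed in single subunits in both directions. Beside this, 26 of 26 proliferation genes were lower in lung than in liver in PSGL1lo (median -0.90) and 14 of 26 in PSGL1hi cells (median -0.33), and 10 of 11 myeloid markers were higher in lung in each fraction; their part was not tested. In PSGL1lo cells 6 members (8.7%) were higher and 14 (20.3%) lower in lung than in liver, where 19.6% of all tested genes were higher and 20.4% lower, with a median change of -0.05. In PSGL1hi cells 6 (8.7%) were higher and 9 (13%) lower, where the shares of all tested genes were 20.1% and 18.3% and the median was 0.03; with size factors by the median of ratios the split was 8 higher and 7 lower, and with only the groups compared 13 higher and 11 lower. Sdhb, the iron-sulfur subunit of complex II, read 69.3 and 81.4 CPM in lung PSGL1lo against 125 and 107 in liver PSGL1lo (-0.62 ± 0.10, adjusted p = 2.20e-05), and 84.4 and 99.9 against 132 and 123 in PSGL1hi (-0.47 ± 0.09, adjusted p = 0.000451). Uqcrc1, the complex III core protein, changed by -0.55 in PSGL1lo and -0.40 in PSGL1hi. Cox7a2l went the other way, with 138 and 146 CPM in lung against 111 and 108 in liver PSGL1lo (0.38 ± 0.08, adjusted p = 0.000496). In PSGL1hi it read 155 and 159 against 121 and 112 (0.43 ± 0.08, adjusted p = 0.000135). None of these overlapped between the organs in either fraction, and Sdhb, Uqcrc1 and Cox7a2l were called in every alternative fit of both comparisons. Sdha read 374 and 369 CPM in lung PSGL1lo against 325 and 316 in liver (0.21 ± 0.07, adjusted p = 0.0127), a direction opposite to that of Sdhb. Ndufa4 was lower in lung than in liver in PSGL1hi cells only by the test (-0.43, adjusted p = 0.00107), with 41.3 and 47.6 CPM against 56.9 and 63.2; its difference between fractions, tested as lung minus liver above, was 0.26 (adjusted p = 0.322). In PSGL1lo cells the counts were 11 higher and 4 lower without liver replicate 1, 4 and 23 without liver replicate 2, 2 and 7 without lung replicate 1 and 2 and 11 without lung replicate 2. Among the other steep changes of PSGL1lo cells, Ndufb2 was lower in lung (-0.48) and Uqcrb (0.34) and the central stalk subunit Atp5c1 (0.28) higher, and in PSGL1hi cells Ndufc1 was lower (-0.51) and Ndufa6 (0.35) and Atp5b (0.34) higher. In PSGL1hi cells the counts were 4 and 5 without liver replicate 2 and, without the others, 10 or 11 in all.

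Against spleen the members moved in both directions in both organs, but the tissue cannot be told apart here from the series of libraries. In PSGL1lo cells 27 members (39.1%) were higher and 8 (11.6%) lower in liver, where 28.7% and 29% of all tested genes were, and 30 (43.5%) were higher and 17 (24.6%) lower in lung, where 29.6% and 30.4% were. In PSGL1hi cells 13 (18.8%) were higher and 22 (31.9%) lower in liver, against 28.5% and 29.4% of all tested genes, and 18 (26.1%) higher and 25 (36.2%) lower in lung, against 30.7% and 31%. Without spleen PSGL1hi replicate 2 the liver PSGL1hi split was 14 higher and 13 lower. Of 26 proliferation genes 25 were lower in liver and 26 in lung than in spleen in each fraction, and their part was not tested. A single gene stood out by size. Uqcrq, a small subunit that sits beside cytochrome b, read 6.92 to 13.1 CPM in the 6 spleen libraries and 41.8 to 47.5 CPM in the 8 liver and lung libraries, 2.26 to 2.66 higher on the log2 scale in the 4 contrasts. The other members with the largest positive changes in all 4 contrasts were Ndufa8 (0.72 to 1.17), Atp5j (0.71 to 0.92), Cox6a1 (0.61 to 0.93) and Atp5d (0.59 to 0.84). Uqcr11 (-0.49 to -1.21), Ndufb4 (-0.54 to -1.38), Cox5b (-0.46 to -0.99) and Uqcrb (-0.41 to -0.80) were lower in both organs and both fractions.

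Other mitochondrial genes were counted in the same spleen comparison of PSGL1lo with PSGL1hi, where 16.7% of all tested genes fell and 15.8% rose. Of 76 mitochondrial ribosomal proteins, which translate the mitochondrially encoded subunits, 28 fell and none rose (median -0.25); examples are Mrpl20 (-0.63), Mrps12 (-0.56) and Mrpl18 (-0.51). The adenine nucleotide translocases Slc25a5 (-0.44) and Slc25a4 (-0.44), which exchange ADP for ATP, and the outer membrane pore Vdac2 (-0.42) fell, 3 of 6 carriers and pores. Of 21 genes of the tricarboxylic acid cycle and pyruvate dehydrogenase 7 fell (median -0.17), among them Idh3a (-0.49) and Dlat (-0.41). Of 24 import subunits 4 fell, and of 15 fatty acid oxidation genes 2 fell, shares near that of all tested genes, with no rise in either; of 10 genes of mitochondrial fusion, fission and mitophagy 1 rose and none fell. Of 49 assembly factors 6 fell and 2 rose (median -0.06), shares below those of all tested genes. The complex I factor Timmdc1 was among those that fell (-0.49). Sdhaf1, which inserts iron-sulfur clusters into Sdhb, rose by 0.58 and Cox11, which delivers copper to complex IV, by 0.65. Among 20 regulators 4 rose, including the coactivator Ppargc1b (1.03), and 3 fell, including Slirp (-0.50), shares near those of all tested genes. Of 5 subunits of the pathway whose names the rule does not match, Cox4i1 (-0.27) and the ATP synthase inhibitor Atpif1 (-0.33) fell.

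The lists outside mitochondria were counted as well. Of all tested genes 16.7% fell and 15.8% rose in spleen PSGL1lo, 12.3% and 8.5% in liver and 20.1% and 12.9% in lung. All 26 proliferation genes fell in spleen PSGL1lo (median -1.18), 24 of 26 fell in liver (median -0.51) and 25 of 26 in lung (median -1.08), and their part in the results for the subunits was not tested. Of 21 glycolysis genes 10 fell and 2 rose in spleen (median -0.31), 5 fell and 3 rose in liver (median -0.09) and 9 fell and 2 rose in lung (median -0.27). Between cGVHD and GVHD-free PSGL1lo cells 11 glycolysis genes rose and 1 fell (median 0.27) beside the 3 and 3 of the OXPHOS subunits. Of all tested genes 14.7% rose and 12.8% fell there. Of 82 cytosolic ribosomal proteins, many of which have near-identical copies, 10 fell and 4 rose in spleen (median -0.06), shares below those of all tested genes. In liver the mitochondrial ribosome gave 2 rises and 2 falls of 76 (median -0.04), and in lung 3 rises and 9 falls (median -0.06). These shares too lay below those of all tested genes.

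The other 15 matching symbols stayed under the level asked for and are not among the 69. Cox7c (highest 3.31 CPM), Atp5g1 (4.65), Atp5md (2.67) and Atp5l (1.55) reached over 1 CPM in some library, as did the muscle form Cox6a2 (1.35). Atp5g2, Cox6b2, the muscle form Cox7a1, Ndufa11b and Ndufb4c stayed under 1 CPM, and Cox7b2, Cox8b, Cox8c, Ndufa4l2 and Ndufs5 had no count in any library. Ndufs5, Cox7c, Atp5l and the Atp5g genes have near-identical copies in the genome, and the treatment of reads that match several copies is not stated, so their low levels are uncertain. Of the paralog pairs the widely expressed form was thus the one measured: Cox6a1 and not Cox6a2, Cox7a2 and not Cox7a1, Cox8a and not Cox8b or Cox8c, Ndufa4 and not Ndufa4l2. Of the Atp5g genes, which encode the same c ring protein, Atp5g3 carried nearly all counts, with 117 to 171 CPM, and it changed in none of the 3 tissues between the fractions (-0.15, -0.17 and -0.11). Ndufb4 lay just inside the limit, with 5 CPM or more in 8 of 14 libraries, and Atp5g1 just outside it.

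**Figure D5:**
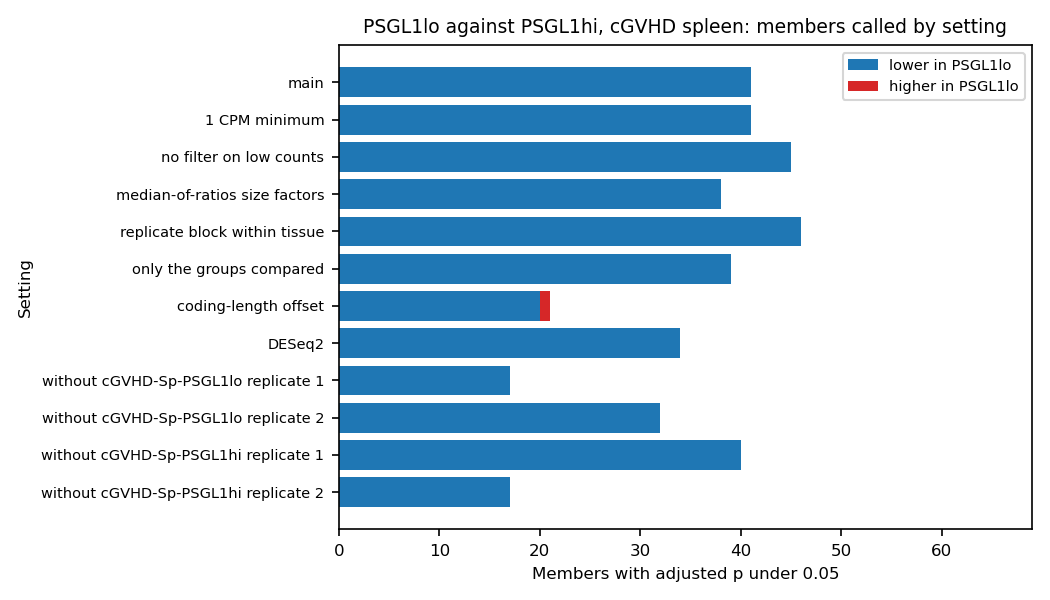
Number of members with an adjusted p under 0.05 (x axis) between PSGL1lo and PSGL1hi cells of the cGVHD spleen in 12 fits (y axis), lower in PSGL1lo in blue and higher in red. The bars run from 17 without PSGL1lo replicate 1 or PSGL1hi replicate 2 to 46 with the replicate number as a block, and red appears only with the coding-length offset.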

How the data were processed

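Whole-number counts of reads for each gene were deposited, without normalisation; per the submitters' processing notes the authors used TopHat2 2.0.8 and HTSeq with the mm9 build. Neither the annotation nor the strand setting is given in the sources used here. All 14 libraries entered, with 13222005 to 33532595 counts, so that 3 counts, the upper limit of a count of 0, equal 0.0895 to 0.227 CPM; such limits cover counting error only. The 2 duplicated symbols were kept as separate rows.

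Genes were kept by filterByExpr and scaled by TMM in R 4.3.3, edgeR 4.0.16 and limma 3.58.1. A quasi-likelihood model with a mean for each group was fitted over all of them, leaving 7 residual degrees of freedom at a common biological variation of 7.35%, and 13 contrasts were tested 2-sided over 13780 genes. Standard errors were taken from the F statistic. Levels are TMM-scaled CPM, whereas the rule of 5 CPM in 2 libraries used unscaled totals. The fit was checked on counts simulated for the spleen fractions. Of the genes changed 1.25-fold 38.8% were called in the right direction, against 80.6% at 1.5-fold and 97% at 2-fold. Of all calls 5.88% were false.

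Values per library are given, among others, for the steepest called members of each comparison, all Sdh subunits, catalytic or core subunits and members with paralogs; 1 member is counted throughout but its own values are not reported here. The alternatives were no filter, a minimum of 1 CPM, median-of-ratios size factors, a replicate block, only the groups compared, an offset for coding length (GENCODE vM21, a length for 92.7% of the tested genes), DESeq2 1.42.0, and leaving out each library in turn. Exon overlaps are from the same annotation and promoters from RefSeq GRCm38.p6; no coordinates of the mm9 counts were used. The members and lists were chosen with earlier results of these data known.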

Additional observations from a re-analysis of the deposited data

Results flagged for a closer look

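In 2 of the 3 direct tests of the PSGL1lo effect between tissues, members passed. Both set an organ against the same spleen libraries, where the tissue cannot be told apart from the series of libraries. Between lung and spleen 3 members did (4.35%, where 5.51% of all tested genes were higher and 11.1% lower), all with a change that was less negative or positive in lung. Ndufa4 differed by 0.53 on the log2 scale (adjusted p = 0.00964; -0.24 in spleen and 0.28 in lung) and Sdhc by 0.43 (adjusted p = 0.0156; -0.39 and 0.04).

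Between liver and spleen 3 members passed as well (4.35%, where 2.64% of all tested genes were higher and 4.2% lower). Atp5o differed by 0.57 (adjusted p = 0.0259; -0.58 in spleen and -0.01 in liver), Atp5b by 0.39 (adjusted p = 0.0159; -0.49 and -0.11) and Sdhc by 0.39 (adjusted p = 0.0489; -0.39 and 0.00). None of these 6 differences was called in every alternative fit; Ndufa4 kept its call in 12 of 14 and Sdhc between liver and spleen in 6 of 14.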

How the results depend on the processing

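Single members were not followed through the alternatives in the contrasts of liver or lung against spleen. Elsewhere no log2 change of a single member that was called turned its direction. The fall of the members in spleen PSGL1lo ranged from 17 to 40 called when 1 library was left out, and was 21 with the coding-length offset. In the other comparisons leaving out 1 library gave 1 to 3 called members for cGVHD against GVHD-free cells, 1 to 7 for the liver and 5 to 9 for the lung fractions, 9 to 27 for lung against liver in PSGL1lo (15, with more higher than lower, without liver replicate 1) and 9 to 11 in PSGL1hi, 24 to 40 for liver against spleen in PSGL1lo and 25 to 40 in PSGL1hi (27, with more higher than lower, without spleen replicate 2), and 37 to 42 for lung against spleen. For the differences of the PSGL1lo effect it gave 0 to 6 (lung and liver), 1 to 17 (lung and spleen) and 0 to 26 (liver and spleen). The other counts beyond 1.5 times were 7 with no filter for lung or liver minus spleen; with only the groups compared 14 for disease (8 higher, 6 lower), 7 for lung against liver in PSGL1lo and 24 in PSGL1hi (13 higher, 11 lower), 7 for lung minus spleen and 0 for liver minus spleen; and 5 for lung minus spleen with the coding-length offset. Median-of-ratios size factors gave 15 for lung against liver in PSGL1hi, with more higher than lower. The cause of these shifts was not tested.

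Deviations of same-numbered libraries correlated at 0.015 for the spleen, 0.07 for the liver and 0.084 for the lung fractions. With 2 libraries a group such values cannot decide whether the replicate numbers pair the samples. With the number as a replicate block 46 members fell in spleen PSGL1lo, 5 were called between the liver fractions and 5 for lung minus spleen. With 2 libraries a group, members without a call may still differ.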
